A study of Mus musculus with 4 samples.

Results

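Entry of a cell into the cycle is controlled in G1, and 10 genes of that control were followed here in regulatory T (Treg) cells with and without floxed Pdpk1. They are the D cyclins Ccnd2 and Ccnd3, the kinases Cdk4 and Cdk6 that D cyclins activate, the kinase inhibitors Cdkn1a, Cdkn1b, Cdkn2c and Cdkn2d, and the tumour suppressor Trp53 with its ubiquitin ligase Mdm2. They were taken by symbol from the 28334 rows of the deposited expression table, where each had 1 row, and all 10 passed the filter that left 13685 genes for testing. Poly-A RNA had been sequenced from CD4+ YFP+ cells sorted from spleen and peripheral lymph nodes of C57BL/6 mice that received no treatment.

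The 2 KO libraries came from mice that were Foxp3 YFP-Cre/0 and, at the other locus, Pdpk1 FL/FL, and the 2 WT libraries from mice that were Foxp3 YFP-Cre/0 and Pdpk1 +/+. Both groups therefore carried the Foxp3-driven YFP and Cre fusion in hemizygous form. Pdpk1 encodes PDK1, the kinase that activates AKT, and its floxed form is cut by Cre in cells that express Foxp3. The age of the mice, the exons between the loxP sites and whether libraries came from separate animals are not given in the labels, so p-values measure the spread between these libraries, which may be technical.

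In G1, complexes of a D cyclin with CDK4 or CDK6 begin the phosphorylation of the retinoblastoma protein RB1, which releases E2F factors and with them the genes of S phase. The INK4 inhibitors, among them p18 (Cdkn2c) and p19 (Cdkn2d), bind CDK4 and CDK6 and keep D cyclins off. The CIP/KIP inhibitors p21 (Cdkn1a) and p27 (Cdkn1b) act mainly on the later cyclin E and CDK2 complexes, and p53 is the best known activator of Cdkn1a and also of Mdm2, whose product in turn degrades p53. AKT, downstream of PDK1, restrains FOXO factors, which are known activators of Cdkn1b, and in T cells CDK6 and cyclin D3 are the kinase and cyclin most studied for their part in proliferation.

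Sequence before the transcript starts is shown for Cdkn1a, Cdk4, Cdk6 and Mdm2, where letters of a searched motif stood in the window, from RefSeq on GRCm38.p6, the assembly of mm10. RefSeq entries were at hand for 9 of the 10 members, with 12 transcript starts in all, and the 250 bases before each start were searched on both strands. Capitals mark the p53 consensus in Cdkn1a, the E-box CACGTG, a site of MYC and related factors, in Cdk4 and Cdk6, and the FOXO core GTAAACA in Mdm2. The p53 consensus was a pair of adjoining half-sites, 20 letters with at most 1 off. The core C and G of each half-site had to match. The strands run 5′ to 3′ toward the gene.
Cdkn1a, chr17:29090729-29090978, plus strand, the more distant of its starts: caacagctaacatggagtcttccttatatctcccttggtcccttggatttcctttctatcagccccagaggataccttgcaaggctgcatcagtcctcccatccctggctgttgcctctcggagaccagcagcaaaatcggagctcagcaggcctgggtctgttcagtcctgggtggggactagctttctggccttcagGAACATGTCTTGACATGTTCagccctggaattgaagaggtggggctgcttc
Cdk4, chr10:127063285-127063534, plus strand: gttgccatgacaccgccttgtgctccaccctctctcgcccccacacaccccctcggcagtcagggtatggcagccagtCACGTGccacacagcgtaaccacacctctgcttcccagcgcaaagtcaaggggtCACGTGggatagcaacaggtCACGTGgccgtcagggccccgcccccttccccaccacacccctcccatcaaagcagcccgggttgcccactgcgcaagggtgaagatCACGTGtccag
Cdk6, chr5:3343643-3343892, plus strand: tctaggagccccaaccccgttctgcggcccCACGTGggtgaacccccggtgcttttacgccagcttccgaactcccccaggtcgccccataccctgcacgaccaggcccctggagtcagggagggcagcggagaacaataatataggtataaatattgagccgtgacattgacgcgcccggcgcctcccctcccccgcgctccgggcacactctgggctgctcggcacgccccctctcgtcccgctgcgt
Mdm2, chr10:117710759-117711008, minus strand: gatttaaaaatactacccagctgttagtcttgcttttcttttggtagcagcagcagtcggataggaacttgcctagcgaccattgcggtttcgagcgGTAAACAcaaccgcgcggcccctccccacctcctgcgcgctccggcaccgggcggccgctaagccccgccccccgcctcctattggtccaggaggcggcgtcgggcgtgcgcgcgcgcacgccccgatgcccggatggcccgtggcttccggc

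The p53 letters begin 51 bases before this Cdkn1a start, which lies 2790 bases upstream of the other, and 19 of 32851 promoters (0.0578%) held such letters. The p53 search rule was set after this Cdkn1a sequence was seen, so the match and its rarity test nothing. No other searched window of a member held p53 letters, that of the main Cdkn1a start included. Sites inside a gene, further upstream or with bases between the half-sites could not be found by this search. The Cdk4 window held 4 E-boxes and the Cdk6 window 1, while 6.02% of promoters held at least 1 and 20 of them (0.0609%) at least 3. FOXO letters stood in the Mdm2 window and before the more distant of the Ccnd3 starts, against 3.17% of promoters. None of the E2F octamers TTTCCCGC, TTTCGCGC, TTTGCCGC and TTTGGCGC was found at a member, and 1.86% of promoters held one. These matches describe letters only.

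The libraries were checked before the comparison. Values are the authors' log2 normalised counts, and reads per library were not given, so the depth is unknown. The median of the tested genes was 8.80 in both KO and 8.77 in both WT libraries. Pdpk1 was at 11.78 and 11.73 in the KO libraries and 11.71 and 11.76 in the WT libraries, a log2 fold change of 0.02 (95% interval -0.06 to 0.10) that did not pass the test (adjusted p = 0.612, limma), and a value summed over the gene cannot show the loss of some exons. The 7 T cell and Treg markers were all high, from 10.74 to 13.26 over the libraries, with Foxp3 at 11.42 and 11.47 in KO and 11.42 and 11.38 in WT. Of the 7, Il2ra and Ctla4 were called higher (log2 fold changes 0.225 and 0.245) and Ikzf2 lower (-0.095). The listed markers of other cells all lay below the median of the tested genes. Their summed linear values were 302 to 310 in KO and 344 to 381 in WT for 5 B cell genes. They were 254 to 261 in KO and 236 to 327 in WT for 7 myeloid and dendritic genes. For 3 NK cell genes they were 36.7 to 40.9 in KO and 53.1 to 54.2 in WT. For both CD8 genes they were 271 to 285 in KO and 268 to 285 in WT. For 5 erythroid genes they were 79.0 to 90.7 in KO and 82.4 to 84.2 in WT. Cd79b and Cd8b1 carried most of the B cell and CD8 sums. Per kilobase of exon, linear values over the libraries were 131.9 to 141.3 for Cd79b and 164.4 to 173.8 for Cd8b1. For the member Cdkn1a they were 190.1 and 182.4 in KO and 129.9 and 134.5 in WT. Of the markers of other cells, Cd79a and Klrb1c were called lower in KO (log2 fold changes -0.62 and -1.05). Their part in the results was not tested. In bulk RNA, fewer cells of a type and less RNA per cell cannot be told apart.

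Libraries with the same number deviated in opposite directions. Across the 13685 tested genes, which are not independent replicates, the difference of KO 1 from KO 2 correlated with that of WT 1 from WT 2 at r = -0.91. The mean of both libraries numbered 1 differed from the mean of both numbered 2 by a median of 0.015 on the log2 scale, against 0.06 between the KO and 0.05 between the WT libraries. Values adjusted for the replicate number before deposit would show such a pattern, but neither the labels nor the file record an adjustment, and this was not tested. Had one been made, the p-values of a comparison on genotype alone, with its 2 residual degrees of freedom, would be too small for every call below. Calls were made with limma on genotype alone, at a Benjamini-Hochberg adjusted p under 0.05 over all tested genes. With a term for the replicate number, 0 genes were called by limma (smallest adjusted p = 0.0964, 4881 genes at an unadjusted p under 0.05), and leaving out any 1 of the 4 libraries also left 0 calls, with 5225 to 5669 genes at an unadjusted p under 0.05. All calls below are therefore those of the 4 libraries together without that term.

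Of the 10 G1 control genes, 6 were called higher in KO and 0 lower, while 27.1% of all tested genes were called higher and 20.3% lower. The balance over all genes depended on the scaling, with 2983 called higher and 3250 lower after median centring, 3029 and 3067 after quantile normalization and 2591 and 2704 after a correction for exon length and mean value that was chosen after the data were seen, against 3703 and 2778 as deposited. It also depended on the level of the genes, with 3215 called higher and 1788 lower at a minimum linear value of 100. All values of the members lay at 8.85 or above on the log2 scale. The members called higher were Cdk6, Cdkn1a, Cdkn2c, Cdkn2d, Cdk4 and Ccnd2, with fold changes of 1.42, 1.41, 1.37, 1.17, 1.11 and 1.08 in this order. Cdkn1b, Ccnd3, Trp53 and Mdm2 were not called. The kinase genes Cdk4 and Cdk6 and the inhibitor genes Cdkn1a, Cdkn2c and Cdkn2d were thus called higher side by side. Cdkn1a and Ccnd2 were called while their paralogs Cdkn1b and Ccnd3 were not. The median log2 fold change of the 10 was 0.13, against 0.015 over all tested genes. With the replicate term, the 6 had unadjusted p-values of 0.00258 to 0.025 and adjusted p-values of 0.0964 to 0.109 in limma. At an adjusted p under 0.1 in that fit, 3 of them, Cdk6, Cdkn1a and Cdk4, were called higher, against 9.96% of all tested genes, and no member lower, against 6.14%.

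**Figure D1:**
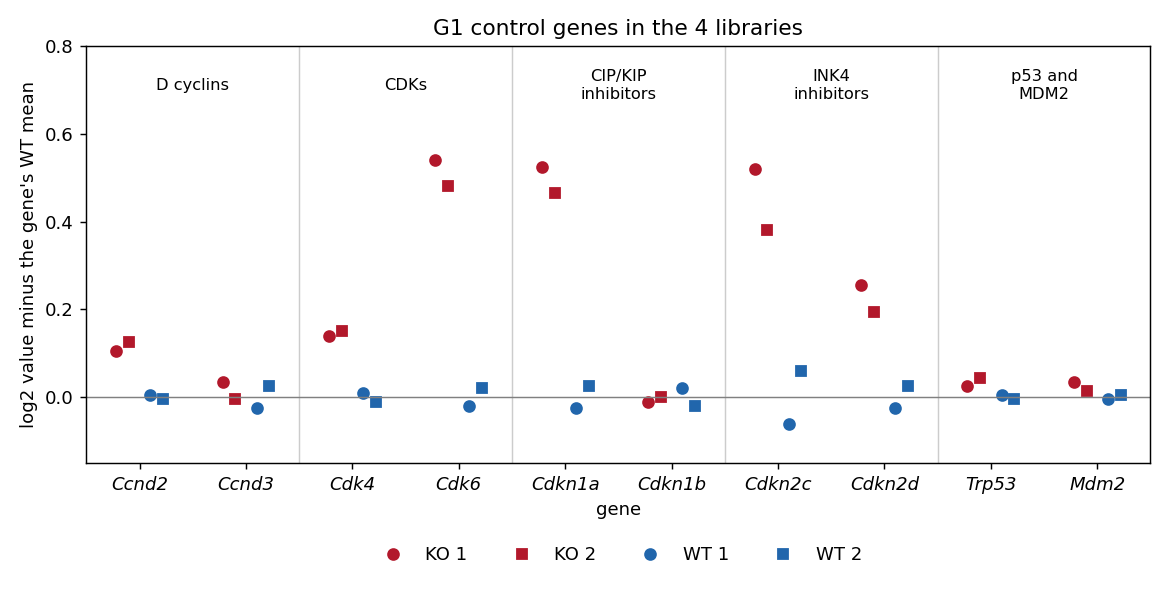
Log2 value of each of the 10 genes in each library, minus the mean of the gene's WT libraries, with KO in red left of WT in blue, library 1 as a circle and library 2 as a square. The KO points of Cdk6, Cdkn1a and Cdkn2c stand 0.38 to 0.54 above the WT mean, while those of Cdkn1b, Ccnd3, Trp53 and Mdm2 lie close to it.

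Cdk6, the partner kinase of D cyclins best known from haematopoietic cells, had the largest fold change of the 10. The gene lies on chromosome 5 (mm10, 3341485 to 3531008, plus strand). Its log2 value was 12.46 and 12.40 in the KO libraries, against 11.90 and 11.94 in the WT libraries. Both KO libraries stood above both WT libraries, and the gap was several times the spread within a group. The log2 fold change was 0.51 (SE 0.03, 95% interval 0.42 to 0.60, adjusted p = 0.00573, limma), larger in size than that of 89.8% of the tested genes. It ranged from 0.46 to 0.54 over all 16 alternative settings. With 2 libraries a group, a filter, variance prior, replicate term or threshold cannot move a fold change, so the range reflects the other settings.

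Cdk4, its paralog, is the other kinase that D cyclins activate and lies on chromosome 10 (127063534 to 127067920, plus strand), with the 4 E-boxes shown above. Its log2 value was 10.52 and 10.53 in KO libraries and 10.39 and 10.37 in WT libraries. The groups did not overlap, but the step was small beside that of Cdk6, at a log2 fold change of 0.145 (SE 0.015, interval 0.10 to 0.19, adjusted p = 0.0088, limma). It was 0.0625 after the correction for exon length and mean value (adjusted p = 0.048). Of its 3249 exonic bases, 641 are shared with Tspan31 on the other strand, and the use of strand in counting was not stated. The same limit holds for Cdkn1a (273 of 3553 bases), Cdk6 (368 of 13989), Ccnd3 (361 of 8775, with Bysl) and Ccnd2. Ccnd2 shares 372 and 368 of its 9409 bases with antisense genes.

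Ccnd2, a D cyclin that growth signals induce in lymphocytes (chromosome 6, 127125162 to 127152193, minus strand), was at 12.73 and 12.75 in KO and 12.63 and 12.62 in WT libraries on the log2 scale. Libraries within a group nearly coincided, and the groups did not overlap. On the log2 scale KO was 0.115 higher (SE 0.015, interval 0.07 to 0.16, adjusted p = 0.012, limma), and 42.5% of tested genes had a smaller change in size.

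Ccnd3, the D cyclin needed by developing thymocytes (chromosome 17, 47505051 to 47599691, plus strand), was not called. It stood at 10.82 and 10.78 in KO and at 10.76 and 10.81 in WT libraries, so the groups overlapped. Its log2 fold change was 0.015 with an interval of -0.06 to 0.09 (adjusted p = 0.682, limma), and its sign turned with median centring or quantile normalization.

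Among the inhibitors, Cdkn1a (p21, chromosome 17, 29090976 to 29100727, plus strand) rose nearly as much as Cdk6. Its log2 value was 9.40 and 9.34 in KO libraries, against 8.85 and 8.90 in WT libraries. Each KO library was well above each WT library. The log2 fold change was 0.495 (SE 0.03, interval 0.40 to 0.59, adjusted p = 0.00604, limma). It ranged from 0.45 to 0.525 over the 16 alternatives, some of which cannot move it, as for Cdk6.

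Cdkn1b (p27, chromosome 6, 134920401 to 134925513, plus strand), the inhibitor that marks resting lymphocytes, was not called. It stood at 11.77 and 11.78 in KO and at 11.80 and 11.76 in WT libraries, and both KO values lay between the WT values. Its log2 fold change was -0.005 with an interval of -0.06 to 0.05 (adjusted p = 0.855, limma). After the correction for exon length and mean value it was -0.09 and passed the threshold (adjusted p = 0.0394), the only alternative in which it did.

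Cdkn2c (p18, chromosome 4, 109660876 to 109667189, minus strand) had the widest spread within groups of the 10. Its log2 value was 9.59 and 9.45 in KO and 9.01 and 9.13 in WT libraries. Even the lower KO library was above the higher WT library, with a log2 fold change of 0.45 (SE 0.07, interval 0.24 to 0.66, adjusted p = 0.0169, limma).

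Cdkn2d (p19, chromosome 9, 21288410 to 21291407, minus strand), the other INK4 gene of this group, was at 9.73 and 9.67 in KO and at 9.45 and 9.50 in WT libraries. The groups did not overlap, and the step was smaller than that of Cdkn2c. KO was higher by 0.225 on the log2 scale (SE 0.03, interval 0.13 to 0.32, adjusted p = 0.0147, limma). The correction for exon length and mean value brought it to 0.11 and ended the call (adjusted p = 0.0688).

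Trp53 (chromosome 11, 69580359 to 69591873, plus strand) and Mdm2 (chromosome 10, 117688875 to 117710758, minus strand) were not called. Trp53 was at 11.20 and 11.22 in KO and 11.18 and 11.17 in WT libraries. Mdm2 was at 11.04 and 11.02 in KO and 11.00 and 11.01 in WT libraries. Groups did not overlap in either gene, which was also so in 39.9% of all tested genes toward higher and in 33.1% toward lower KO values. Without overlap were 8 of the 10 members, all toward higher KO values. The log2 fold changes were 0.035 (interval -0.01 to 0.08, adjusted p = 0.132, limma) for Trp53 and 0.025 (interval -0.02 to 0.07, adjusted p = 0.241, limma) for Mdm2. With the replicate numbers crossed, a pairing chosen after the data were seen, Trp53 passed the threshold at the same fold change (adjusted p = 0.0359, limma). That fit called 9728 of the 13685 tested genes, against 6481 on genotype alone, so a call in it says little about Trp53. The sign of Trp53 turned with the correction for exon length and mean value, to -0.0458. The sign of Mdm2 turned in that correction and also with median centring and quantile normalization.

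**Figure D2:**
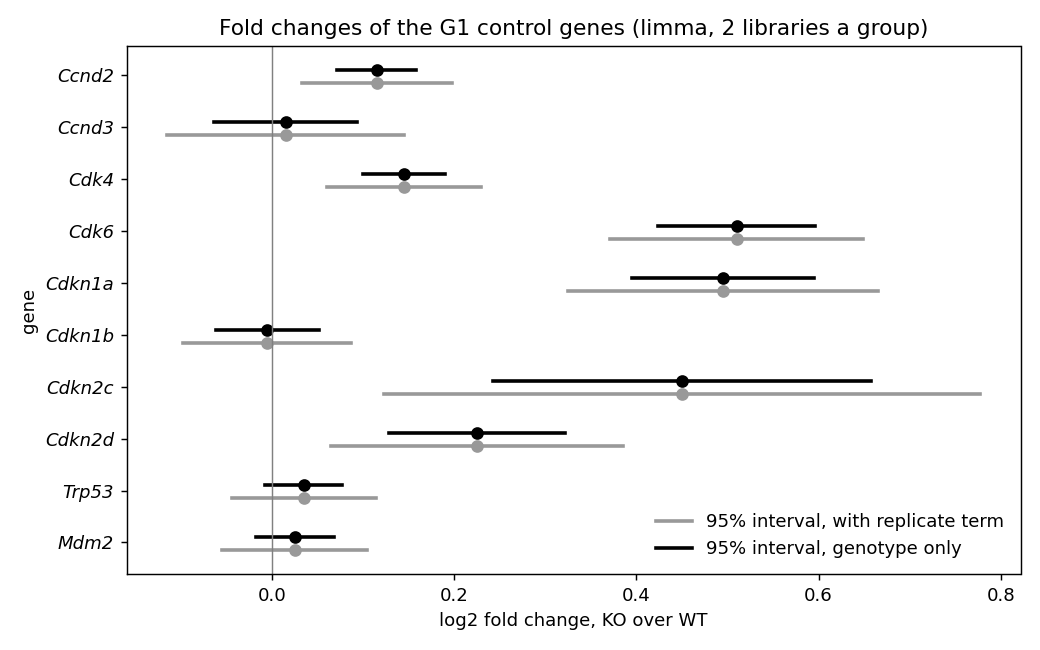
Log2 fold change (KO over WT) of the 10 genes with 95% intervals from limma, in black with genotype only and in grey with a term for the replicate number. Intervals of Cdk6, Cdkn1a, Cdkn2c, Cdkn2d, Cdk4 and Ccnd2 stay above 0 in both fits before adjustment, and those of Ccnd3, Cdkn1b, Trp53 and Mdm2 include 0 in both.

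Ratios of paralogs within a library compare their changes without a scaling of the libraries, as 4 pairs. The log2 ratio of Cdk6 to Cdk4 was 1.94 and 1.87 in KO and 1.51 and 1.57 in WT libraries, so the balance stood 0.365 higher toward Cdk6 in KO. That of Cdkn1a to Cdkn1b was -2.37 and -2.44 in KO and -2.95 and -2.86 in WT libraries, a difference of 0.50. In both pairs the groups were clearly apart.

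The log2 ratio of Cdkn2c to Cdkn2d was -0.14 and -0.22 in KO and -0.44 and -0.37 in WT libraries, a difference of 0.225. That of Ccnd2 to Ccnd3 was 1.91 and 1.97 in KO and 1.87 and 1.81 in WT libraries, a difference of 0.10. In this last pair the gap between the nearest libraries was no larger than the spread within a group. With 2 libraries a group the exact permutation test, two-sided, gave p = 0.333 for each pair and after adjustment over the 4, the smallest p that the design allows.

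**Figure D3:**
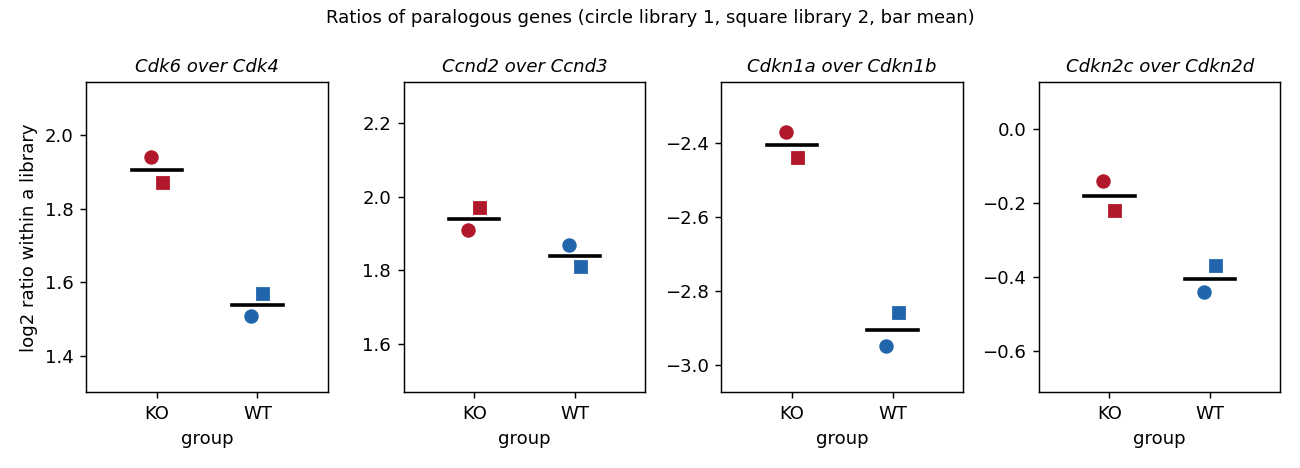
Log2 ratio of paralogs in each library for 4 pairs, KO in red left of WT in blue, with a circle for library 1, a square for library 2 and a bar for the mean. All panels span the same height in log2 units, and the groups stand 0.50 apart for Cdkn1a over Cdkn1b and 0.10 apart for Ccnd2 over Ccnd3.

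Per kilobase of exon, the linear values order the 10 genes by level. Cdkn1b was highest, with 767 and 773 per kb in KO and 783 and 762 in WT libraries, followed by Ccnd2 with 722 and 732 in KO and 674 and 669 in WT. Cdkn1a was lowest, with 190 and 182 per kb in KO and 130 and 135 in WT. The CIP/KIP inhibitor that was not called was thus the most abundant member by this measure, and the one that rose was the least.

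Between these ends stood Trp53 (582 and 590 per kb in KO, 574 and 570 in WT), Cdkn2d (540 and 518 in KO, 444 and 460 in WT) and Cdk4 (452 and 455 in KO, 413 and 407 in WT). Mdm2 followed with 414 and 409 per kb in KO and 403 and 406 in WT, and Cdk6 with 403 and 386 in KO and 273 and 281 in WT. Cdkn2c had 287 and 260 per kb in KO and 192 and 209 in WT, and Ccnd3 206 and 200 in KO and 198 and 205 in WT. Cdk4 and Mdm2 stood next to each other in WT without overlap, and Ccnd3 and Cdkn2c overlapped in WT but not in KO. Exon lengths join all annotated isoforms, so genes with many isoforms come out too low.

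Of 25 listed genes of the other G1/S machinery, all tested, 13 were called higher in KO, 2 lower and 10 not. Of all tested genes, 27.1% were called higher and 20.3% lower. Their median log2 fold change was 0.165. Those with the smallest p were Tfdp1, the dimer partner of E2F factors, at 1.27-fold (log2 fold change 0.345, adjusted p = 0.00508), the INK4 inhibitor gene Cdkn2b at 2.12-fold (1.085, adjusted p = 0.00573), and the pocket protein genes Rbl1 (p107) at 1.19-fold higher and Rbl2 (p130) at 1.19-fold lower (0.25 and -0.245, adjusted p = 0.00586 and 0.00597, all limma).

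Cdkn2b, which encodes p15, was at 6.03 and 5.93 in KO and at 4.88 and 4.91 in WT libraries. Rbl2, the pocket protein of resting cells, was at 10.96 and 10.99 in KO and 11.22 in both WT libraries. Rb1 itself was not called (11.15 and 11.22 in KO, 11.20 and 11.13 in WT). Ccnd1, the D cyclin with little expression in T cells, was at 3.48 and 3.52 in KO and 4.26 and 4.10 in WT libraries and was called lower (-0.68, adjusted p = 0.0103, limma). The next cyclins in line, Ccne1 and Ccne2, were called higher (log2 fold changes 0.545 and 0.585), while their kinase gene Cdk2 was not called (log2 fold change 0.09, adjusted p = 0.494).

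Of the listed genes for the turnover of D cyclins and p27, 17 of 18 were tested, of which 13 were called higher, 1, Rnf123, lower and 3 not, with a median log2 fold change of 0.145. Of all tested genes 27.1% were called higher and 20.3% lower. After the correction for exon length and mean value 8 of the 17 were higher. Dtl, a substrate receptor that directs p21 among others to degradation, was 1.60-fold higher (log2 fold change 0.68, adjusted p = 0.00736), and its adaptor gene Ddb1 1.13-fold (0.175, adjusted p = 0.00681). Fbxw7, the receptor for cyclin E, was 1.14-fold and the scaffold gene Cul1 1.10-fold higher (adjusted p = 0.00681 and 0.00701, limma). Skp2, the receptor that directs p27 to degradation, was at 8.35 and 8.25 in KO and 7.76 and 7.82 in WT libraries, 1.42-fold higher (adjusted p = 0.00825).

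The p53 pathway showed no common direction. Outside Cdkn1a and Mdm2, 29 p53 target genes were tested, of which 8 were called higher, 4 lower and 17 not, against 27.1% and 20.3% of all tested genes called higher and lower. Their log2 fold changes had a median of 0. Pmaip1, which encodes the death protein NOXA, was at 10.21 and 10.14 in KO and 9.58 and 9.64 in WT libraries, 1.48-fold higher (0.565, adjusted p = 0.00591). Sesn1, a sestrin that restrains mTORC1, was at 9.84 and 9.89 in KO and 10.37 and 10.36 in WT libraries, 1.41-fold lower (-0.50, adjusted p = 0.00525). Ei24 was 1.19-fold higher (0.25, adjusted p = 0.00551, limma).

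Other well-known p53 targets went either way. Bbc3, Ccng1 and Ddb2 were not called, with log2 fold changes of -0.01, 0.08 and -0.05. Bax, Zmat3, Trp53inp1 and Rps27l were called higher (0.105, 0.125, 0.11 and 0.305), and Sesn2 and Btg2 lower (-0.385 and -0.14). Of 19 tested p53 regulators, 4 were called higher and 3 lower (median 0.03), against 27.1% and 20.3% of all tested genes. Hipk2, a kinase that phosphorylates p53, was 1.67-fold higher (0.74, adjusted p = 0.00545), and the p53 relative Trp73 2.31-fold from low values (5.10 and 5.12 in KO, 4.01 and 3.80 in WT, adjusted p = 0.00646). The DNA damage kinase gene Atr was 1.15-fold and the MDM2 relative Mdm4 1.14-fold lower (adjusted p = 0.00643 and 0.0232, limma).

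The listed FOXO targets of the cell cycle were called in both directions. Of 8 genes, 3 were called higher and 2 lower, against 27.1% and 20.3% of all tested genes. The list was not sorted by the direction in which FOXO factors act, so these counts give no direction of FOXO activity. Of the 8 genes, 4 are members. The members Cdkn1a, Cdkn2d and Ccnd2 were the 3 higher ones, and Rbl2 and Ccnd1 the 2 lower ones. Ccng2, an atypical cyclin of arrested cells that FOXO factors induce, was not called, at 11.04 and 10.99 in KO and 10.95 and 10.98 in WT libraries.

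Genes that E2F factors induce and markers of dividing cells all stood higher in KO. All 16 listed genes were called higher, against 27.1% of all tested genes. Their median log2 fold change was 0.52, close to those of Cdk6, Cdkn1a and Cdkn2c. Mki67, the marker of cells in cycle, was at 12.88 and 12.82 in KO and 12.30 and 12.36 in WT libraries (1.43-fold, adjusted p = 0.00591). Cdt1, a factor that licenses replication origins, was 1.30-fold higher (adjusted p = 0.00509, limma), and the cyclin gene Ccna2 1.60-fold (adjusted p = 0.0056, limma). Whether the higher inhibitor and kinase values go with a larger share of dividing cells was not tested.

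**Figure D4:**
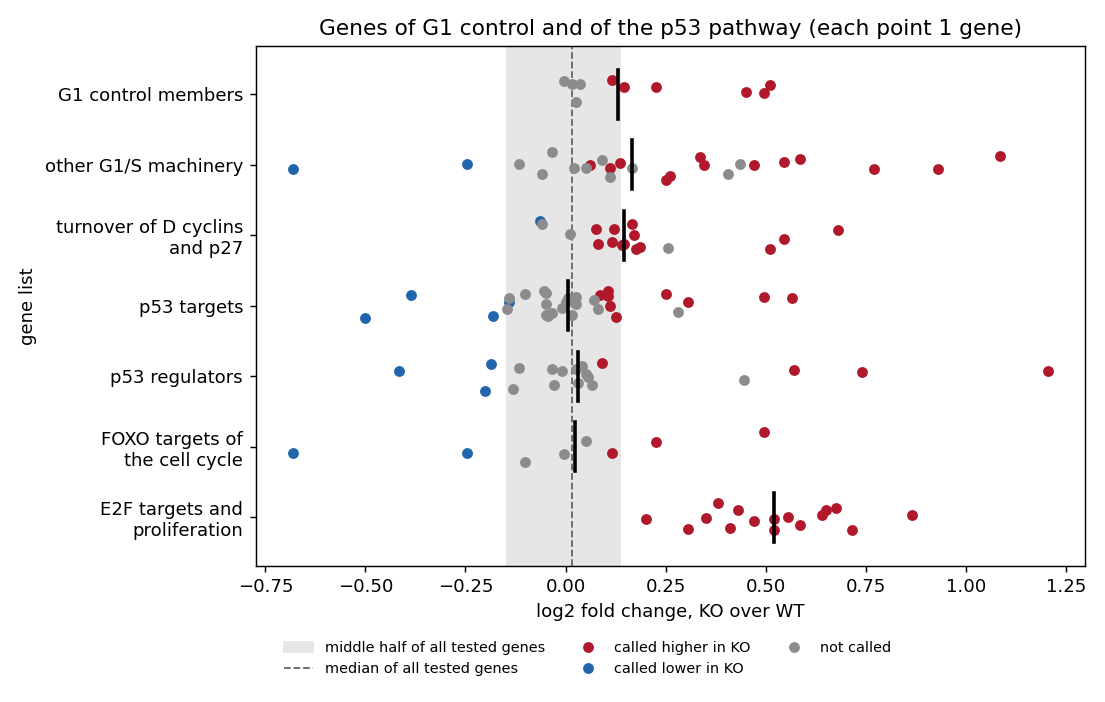
Log2 fold change (KO over WT) of each tested gene on 7 lists, 1 point a gene, red where called higher in KO, blue where called lower and grey where not called, with a bar at the list's median and a band for the middle 50% of all tested genes. All 16 E2F targets lie above 0, the p53 targets centre near 0, and the G1 control members run from -0.005 to 0.51, with some genes on more than 1 list.

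The pattern over the 4 libraries most like that of Cdk6, by the Euclidean distance of log2 values after subtracting each gene's mean, was that of Xrcc2 and Arl6 (distance 0.0087 each), followed by Hist1h4i (0.0141). Cdkn1a stood at a distance of 0.0166. With 4 libraries, many genes with a similar fold change come close by this measure.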

How the data were processed

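Poly-A RNA of sorted Treg cells was measured in 4 libraries, 2 KO and 2 WT. The authors deposited log2 normalised counts, per the file name, and STAR, DESeq2 and the build mm10 are named in the submitters' processing notes without versions. Annotation, counting, use of strand and the exact log2 transform are not given in the sources used here. Values as deposited lay between -2.1 and 13.94. How far the transform shrinks fold changes of low genes was not tested. Depth is unknown and no count model was run.

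Genes entered with a linear value (2 to the power of the deposited one) of 10 or more in 2 or more libraries (13685 of 28334 rows). Genotypes were compared by limma 3.58.1, run in R 4.3.3 (variance prior with trend, genotype only, 2 residual degrees of freedom, two-sided, Benjamini-Hochberg over all tested genes). Positions and exon lengths came from GENCODE M21, matched by symbol for 97.3% of tested genes with Python 3.11.15, and promoters from RefSeq. On simulated data the fit was required only to recover the sign and size of set fold changes, which does not check its p-values. Members and lists were chosen with earlier results of these data known, and the p53 search rule after that Cdkn1a sequence was seen. Named genes are the members, up to 4 called genes of each list with the smallest p, Pdpk1, Foxp3 and the 3 genes most like Cdk6. Rb1, Cdk2, Ccne1, Ccne2, Skp2, Rnf123, Bbc3, Ccng1, Ddb2 and Ccng2 were named after their values were seen, as was the distance of Cdkn1a. The same holds for Bax, Zmat3, Trp53inp1, Rps27l, Sesn2 and Btg2. Of the genes this rule names, 1 is not reported here. Itgam stands on more than 1 row and was left out of its list.

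Alternatives were a replicate term, median centring, quantile normalization, a pseudocount of 10, a minimum of 100 or none, other variance priors, array weights and leaving out each library. The crossed pairing, the length correction (loess, span 0.4) and a threshold of 0.1 were added after seeing the data.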

Additional observations from a re-analysis of the deposited data

How the results depend on the processing

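With the replicate block in limma, 0 genes were called higher and 0 lower, 0 members and 0 genes of each list, although 4881 genes and 6 of the 10 members had an unadjusted p under 0.05. At a threshold of 0.1 that fit called 1363 genes higher and 840 lower, and 3 members higher (Cdk6, Cdkn1a and Cdk4). Higher and lower calls were 7 and 1 of the other G1/S machinery, 5 and 0 of turnover and 4 and 2 of p53 targets. They were 2 and 1 of p53 regulators, 1 and 1 of FOXO targets and 13 and 0 of the 16 E2F targets. The labels do not say what libraries of the same number share, and these deviated oppositely (r = -0.907). With the pairing crossed, 5282 genes were called higher and 4446 lower, 7 members higher (Trp53 was added, adjusted p = 0.0359), and the lower calls were 4, 2, 8 and 5 in the other G1/S machinery, turnover, p53 targets and p53 regulators, with 7 p53 regulators higher. Leaving out each library in turn gave 0 calls for all genes, members and lists. Log2 fold changes then ranged from 0.48 to 0.54 for Cdk6, 0.465 to 0.525 for Cdkn1a and 0.38 to 0.52 for Cdkn2c and -0.01 to 0.04 for Ccnd3, and differences of log2 ratios kept their sign in every alternative run.

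A minimum of 100 called 3215 genes higher and 1788 lower, with 1 of the other G1/S machinery and 1 FOXO target lower. Without a filter, 2 p53 targets were lower and 2 p53 regulators higher and 1 lower. Quantile normalization left 5 p53 targets higher, and a prior without trend 0 turnover genes lower. The length correction called 1 member lower (Cdkn1b) and 8 turnover genes higher. Signs turned for Ccnd3 (-0.025 with quantile normalization, -0.015 with median centring, -0.005 without KO 1, -0.01 without WT 1), Mdm2 (-0.015, -0.005 and, corrected for length, -0.0311), Trp53 (-0.0458, corrected for length) and Cdkn1b (0.015 without WT 1), none past the threshold in those settings. The cause of these changes was not tested. The 6 members were called higher under every other filter, scaling, prior and weighting planned.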
